A study of Caenorhabditis elegans with 12 samples.

Results

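The slc-17 genes of Caenorhabditis elegans encode membrane transporters of the solute carrier family SLC17. They were taken here as every probe set whose annotated gene symbol starts with slc-17., which gave 11 probe sets for 9 genes. The array holds 22548 probe sets besides controls, of which 20766 carry a single gene name, for 17118 genes. In mammals the family holds transporters of organic anions: the vesicular glutamate and nucleotide transporters, the lysosomal sialic acid exporter sialin and sodium-linked phosphate carriers. The vesicular members are driven by the membrane potential and proton gradient that the vacuolar proton pump sets up. EAT-4, a worm vesicular glutamate transporter of this family, has another symbol and so is not among the 9. The substrate of each slc-17 gene is not given in the sources used here, so the genes are described by number. The family was chosen by measured signals, because slc-17.3 and slc-17.4 were lower in the atfs-1 mutant than in wild type on the arrays labelled spg-7 RNAi. That difference is therefore given below as a description with no test, as are all differences of these 2 genes that use those arrays.

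Whole worms of the N2 background were measured on 12 Affymetrix arrays in 4 groups of 3 biological replicates. The groups were atfs-1(tm4525) fed for spg-7 RNAi, atfs-1(tm4525) on control RNAi, wild type fed for spg-7 RNAi, and wild type on control RNAi. All were synchronised by bleaching, grown in liquid culture and harvested as L4 larvae, the last larval stage. ATFS-1 is a transcription factor that turns on genes when mitochondria are stressed, SPG-7 is a subunit of a mitochondrial inner membrane protease whose loss stresses mitochondria, and the title of the series concerns the transcripts that depend on ATFS-1 under such stress. The values are probe-set signals on a linear scale, from MAS5, and all arrays shared 1 scale (mean without the outer 2% at each end 500.1 to 500.2), with medians of 111.9 to 158.8. The number of arrays limits the precision.

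The targeted gene ran against the labels. The spg-7 signal was 26210, 17700 and 9968 on the mutant arrays labelled spg-7 RNAi, against 385, 450.0 and 313 on the mutant control arrays. The wild-type values were 13440, 22350 and 7278 on the arrays labelled spg-7 RNAi, against 747, 454 and 1057 on the control arrays. The probe set that should have shown the knockdown was thus brighter under it on 6 of 6 arrays, so every direction below follows the labels only. Whether the probe set reads RNA of the RNAi construct or the RNAi labels were exchanged was not tested. If they were exchanged in both genotypes, each response to spg-7 RNAi below would change its sign, and the 2 genotype comparisons would change places. "Stressed" stands for arrays labelled spg-7 RNAi. The atfs-1 signal was 555, 590.3 and 618 in the mutant and 996, 586 and 922 in wild type on the arrays labelled spg-7 RNAi, and 523, 386 and 405 in the mutant and 454, 370.3 and 409 in wild type on control arrays. Its probe set binds more than 1 transcript by its s mark, and whether it lies inside the tm4525 change is not known here. Markers of intestine, neurons, body wall muscle, hypodermis, oocytes and sperm all passed the low-signal filter. Yolk genes had a median log2 signal of 6.46 on wild-type control replicate 1, against 13.96 and 14.48 on the other wild-type control arrays, so that array stands apart.

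slc-17.3, gene C02C2.4 on chromosome III, was bright in 1 of the 4 groups. Its signal was 125.1, 91.0 and 117.7 on the mutant arrays labelled spg-7 RNAi and 86.3, 102.5 and 94.7 on the mutant control arrays. Wild-type signals were 1291, 646 and 331 on the arrays labelled spg-7 RNAi, against 52.3, 56.8 and 56.2 on the control arrays. The 3 wild-type arrays labelled spg-7 RNAi lay above all 9 others, and they varied among themselves more than the arrays of any other group. Means were 111.3 ± 17.9 in the stressed mutant, 94.5 ± 8.10 in the unstressed mutant, 756 ± 489 in stressed wild type and 55.1 ± 2.45 in unstressed wild type (SD, n = 3 each). Both mutant groups overlapped each other, whereas neither overlapped unstressed wild type. In whole-worm RNA, fewer cells of a type and less RNA per cell cannot be told apart.

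slc-17.4, gene T28F3.4 on chromosome IV, had the same brightest group. Its signal was 510.1, 399 and 530 on the mutant arrays labelled spg-7 RNAi and 324, 274 and 444 on the mutant control arrays. On the wild-type side it read 1672, 2476 and 1357 on the arrays labelled spg-7 RNAi, against 251, 404 and 354 on the control arrays. The group means were 479.6 ± 70.5, 347 ± 87.4, 1835 ± 577 and 336.5 ± 77.9 in that order (SD, n = 3 each). The other 3 groups overlapped one another and lay below all 3 stressed wild-type arrays; the lowest stressed mutant array (399) was just under the highest wild-type control array (404).

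**Figure D1:**
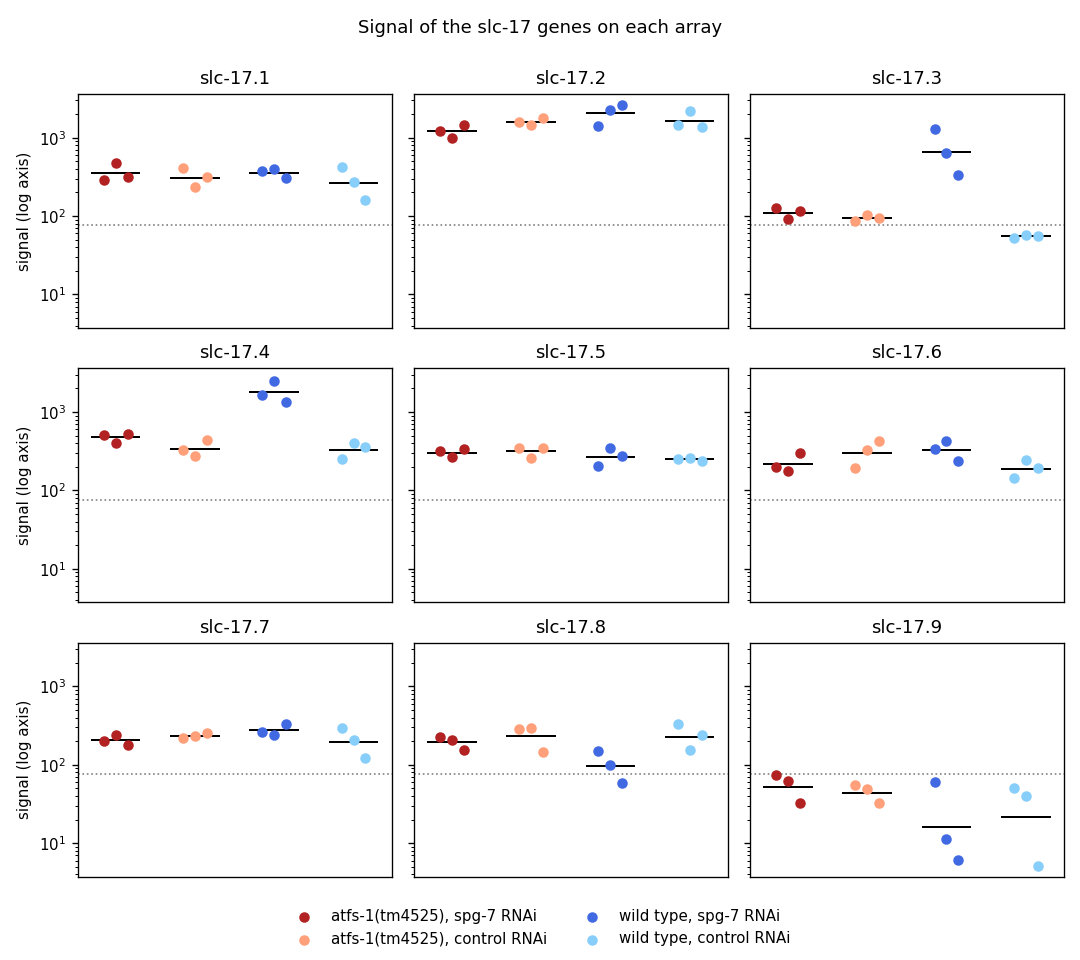
Signal of each slc-17 gene on each of the 12 arrays (log axis, brightest probe set of the gene), with the 4 groups in colour and a black line at the geometric mean of 3 arrays; the dotted line is the low-signal filter level, 76. Among the probe sets shown, only those of slc-17.3 and slc-17.4 have a group, wild type labelled spg-7 RNAi, that stands above the other 3. The s probe set of slc-17.7, not shown, has this too. slc-17.9 lies under the filter level on all arrays.

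The contrast that chose the family can be put in numbers as follows. On the arrays labelled spg-7 RNAi, slc-17.3 was 5.9-fold lower in the mutant than in wild type (log2 difference -2.56 ± 0.41, SE) and slc-17.4 was 3.73-fold lower (-1.90 ± 0.30). Every mutant array was below every wild-type array for both genes, with 3 against 3 arrays. Over all 10385 genes fitted, 7.29% were lower without overlap and 15.7% higher without overlap in this contrast, and 0.0867% passed the limma threshold as lower, but nothing is read from these shares since the contrast chose the genes. Of the other 6 genes fitted, each by its brightest probe set, slc-17.8 was higher in the mutant on every array (1.01 ± 0.43). The remaining 5 lay between -0.76 and 0.18 with overlapping groups. The further probe sets of slc-17.1 and slc-17.7 did separate in this contrast and are given below. The median over the 8 fitted genes was -0.49, against 0.005 over all genes.

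The spg-7 RNAi response of wild type shares the stressed wild-type arrays with that contrast, so for slc-17.3 and slc-17.4 it is again a description. slc-17.3 was 11.8-fold higher on the arrays labelled spg-7 RNAi than on control arrays (log2 3.56 ± 0.41, SE), and slc-17.4 was 5.39-fold higher (2.43 ± 0.30). The groups of both genes were separate, as were those of 9.99% of all genes in this direction, a share from which nothing is read here. The control signal of slc-17.3 was under the filter level, which makes the size of its change uncertain: with 32 added to each signal before log2 the difference was 2.98, and for slc-17.4 it was 2.32. Leaving out any 1 array moved slc-17.3 between 3.07 and 4.05 and slc-17.4 between 2.19 and 2.62. Without both wild-type control replicate 1 and wild-type spg-7 replicate 3, an alternative chosen after seeing the data, the values were 4.01 and 2.43.

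In the mutant the same response was small for both genes. The difference between arrays labelled spg-7 RNAi and control arrays was 0.23 ± 0.41 for slc-17.3 and 0.48 ± 0.30 for slc-17.4 (log2, SE), with overlapping groups. The mutant response minus the wild-type response came to -3.34 ± 0.58 and -1.95 ± 0.43. These 3 sets of values share arrays with one another and with the contrast that chose the genes, and are not independent of it.

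Several measures moved across the same arrays. On wild-type spg-7 replicates 1, 2 and 3, slc-17.3 was 1291, 646 and 331 and slc-17.4 was 1672, 2476 and 1357. There the summed signal of the 11 oocyte markers was 4399, 40948 and 81683 and that of the 8 intestine markers was 31511, 16911 and 11267. On wild-type control replicates 1, 2 and 3 the oocyte sum was 4856, 59340 and 24275 and the intestine sum 12520, 15954 and 18025. slc-17.3 stood there at 52.3, 56.8 and 56.2 and slc-17.4 at 251, 404 and 354. Over the groups the oocyte sum ranged from 3810 to 28736 in the stressed mutant, 24181 to 44114 in the unstressed mutant, 4399 to 81683 in stressed wild type and 4856 to 59340 in unstressed wild type. The intestine sum ranged from 16882 to 25644, 18118 to 21032, 11267 to 31511 and 12520 to 18025 in the same order. On control RNAi the intestine sum of every mutant array was above that of every wild-type array. The stressed genotypes separated by the 23 sperm markers, whose sum was 465877 to 514170 in the stressed mutant, against 228572 to 351176 in stressed wild type, and was 410113 to 670659 in the unstressed mutant, against 89081 to 521220 in unstressed wild type. The sum of the 7 body wall muscle markers was 29868 to 50559 in stressed wild type, below the 51346 to 73054 of unstressed wild type, and was 49708 to 57810 in the stressed mutant, against 48788 to 58629 in the unstressed mutant. The neuron, hypodermis and yolk sums overlapped between the stressed genotypes and in the wild-type response. All markers of the oocyte, intestine, sperm and muscle lists were fitted and none was at 0 on any array. In the wild-type response limma called 1 of the 8 intestine markers and 1 of the 9 neuron markers, beside 4.73% of all genes. No marker of these 2 lists was called in another comparison, and none of the oocyte, sperm, muscle, hypodermis or yolk lists in any. For actin, the control probe set at the 3' end was brighter than the one at the 5' end by a log2 ratio of 0.82 to 0.85 on wild-type arrays labelled spg-7 RNAi and 0.43 to 0.62 on wild-type control arrays, and 0.54 to 0.69 against 0.41 to 0.48 in the mutant. The part of these in the slc-17 signals was not tested.

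The difference between mutant and wild type on control RNAi uses none of the arrays that chose the genes. Its SE, intervals and p values do use them, as the spread was taken from all 12 arrays. All 8 fitted genes were tested here. None was called (limma, Benjamini-Hochberg adjusted p under 0.05), at a background of 0% of 10385 genes called either way, and none reached an unadjusted p under 0.05, as did 1113 genes overall. For slc-17.3 the mutant signals were above all wild-type control signals, a log2 difference of 0.78 ± 0.41 (SE) with a 95% interval of -0.12 to 1.67 and a limma adjusted p of 0.533. Its adjusted p over the alternatives tried was 0.393 to 0.99. For slc-17.4 the groups overlapped, with a difference of 0.04 ± 0.30 and a 95% interval of -0.61 to 0.70 (limma adjusted p = 0.995), whose sign turned negative under quantile normalisation (-0.09) and median centring (-0.08). slc-17.5 was higher in the mutant without overlap (0.33 ± 0.26, limma adjusted p = 0.738), at mutant signals of 349, 261 and 346, against 253, 258.5 and 241 in wild type. Thus 2 of 8 genes were higher without overlap, where 11.8% of all genes were. The family median was 0.25, against -0.02 over all genes. Of the 8 differences 7 were positive, among them slc-17.4 at 0.04 and slc-17.8 at 0.004, both negative after quantile normalisation or median centring. The share of positive differences over all genes was not counted, so nothing is read from this count.

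slc-17.8, gene F25G6.7 on chromosome V, differed in the opposite direction to slc-17.3 and slc-17.4. Its signal was 226.6, 207 and 156.2 on mutant arrays labelled spg-7 RNAi, against 286, 293 and 145.3 on mutant control arrays. In wild type it was 150.9, 100.1 and 59.5 on arrays labelled spg-7 RNAi, against 328, 152.5 and 241.3 on control arrays. The wild-type groups did not overlap, with all 3 stressed arrays lower, as for 8.48% of all genes. The difference was -1.25 ± 0.43 (log2, SE; 95% interval -2.18 to -0.32) with a limma adjusted p of 0.124, and the adjusted p was 0.071 to 0.357 over the alternatives. It thus missed the threshold, as did its mutant response (-0.24 ± 0.43, limma adjusted p = 0.839) and the difference between responses (1.00 ± 0.60, limma adjusted p = 0.854).

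slc-17.6, gene F12B6.2 on chromosome I, lay in the same direction as slc-17.3 in each comparison but the mutant response, without passing the test. On arrays labelled spg-7 RNAi its signal was 199.9, 177 and 303.3 in the mutant and 342, 433 and 236 in wild type. On control arrays it was 196.1, 326 and 431 in the mutant and 144.3, 242 and 194 in wild type. In both genotypes the RNAi groups overlapped, and the stressed mutant overlapped stressed wild type too. The wild-type response was 0.79 ± 0.37 (SE, limma adjusted p = 0.263), the mutant response -0.45 ± 0.37 (limma adjusted p = 0.708) and their difference -1.24 ± 0.53 (limma adjusted p = 0.737; unadjusted p = 0.0368).

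slc-17.2, gene C38C10.2 on chromosome III, is measured by an s probe set that can bind other transcripts. Its signal was 1219, 1003 and 1450 on mutant arrays labelled spg-7 RNAi and 1599, 1435 and 1780 on mutant control arrays. Wild-type signals were 1429, 2278 and 2638 on arrays labelled spg-7 RNAi and 1436, 2182 and 1348 on control arrays. Every pair of groups in the comparisons overlapped. Its responses were -0.40 ± 0.28 in the mutant and 0.34 ± 0.28 in wild type (log2, SE), with limma adjusted p of 0.671 and 0.55.

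slc-17.1, gene ZK54.1 on chromosome X, and slc-17.7, gene ZK682.2 on chromosome V, have a pair of probe sets each. The s probe set of slc-17.1 averaged 360.3 ± 101 in the stressed mutant, 317.5 ± 87.1 in the unstressed mutant, 360 ± 49.7 in stressed wild type and 284 ± 130 in unstressed wild type (SD, n = 3 each). It gave a wild-type response of 0.44, and the unique probe set of the gene gave -0.06 with every probe set fitted on its own, so the 2 disagreed in sign while neither was called. On arrays labelled spg-7 RNAi this unique probe set read 194.7, 300.6 and 193.7 in the mutant. All were above its 184.2, 153.8 and 183.7 in wild type, a difference of 0.375 given as a description. Of all genes fitted, 15.7% were higher without overlap in this contrast, a share from which nothing is read. The unique probe set of slc-17.7 averaged 208.2 ± 31.9, 235.5 ± 15.8, 279 ± 51.1 and 209.0 ± 87.9 in the same order of the 4 groups. Its wild-type response was 0.50 ± 0.33 (limma adjusted p = 0.443, or 0.536 with every probe set fitted on its own). In the latter fit that of the s probe set was 0.76 ± 0.30 (limma adjusted p = 0.228). That s probe set read 375, 257 and 258 on stressed wild-type arrays, against 218, 169.5 and 137.4 on wild-type control arrays, with no overlap. In this direction the groups of 9.99% of all genes fitted were also separate. On the stressed mutant arrays it read 130.0, 152.1 and 165.1, below all stressed wild-type arrays, a difference of -0.98 given as a description. Of all genes fitted, each by its brightest probe set, 7.29% were lower without overlap in this contrast, a share from which nothing is read. The unstressed mutant arrays, at 144.0, 156.4 and 197.0, also lay below all stressed wild-type arrays.

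slc-17.5, gene F21F8.11 on chromosome V, had groups that overlapped in both responses; its values on control RNAi are given above. Its signals spanned 204.2 to 352.5 over all 12 arrays, and its responses were -0.05 ± 0.26 in the mutant and 0.10 ± 0.26 in wild type (limma adjusted p = 0.946 and 0.879), with 95% intervals of -0.63 to 0.53 and -0.47 to 0.68. slc-17.9, gene T09B9.2 on chromosome X, did not pass the filter and was not fitted. It had signals of 73.9, 61.9 and 32.3 in the stressed mutant, 55.5, 48.7 and 32.3 in the unstressed mutant, 60.2, 11.4 and 6.09 in stressed wild type and 51.0, 39.8 and 5.13 in unstressed wild type. All of these lie under the filter level of 76, so no order is read from them.

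**Figure D2:**
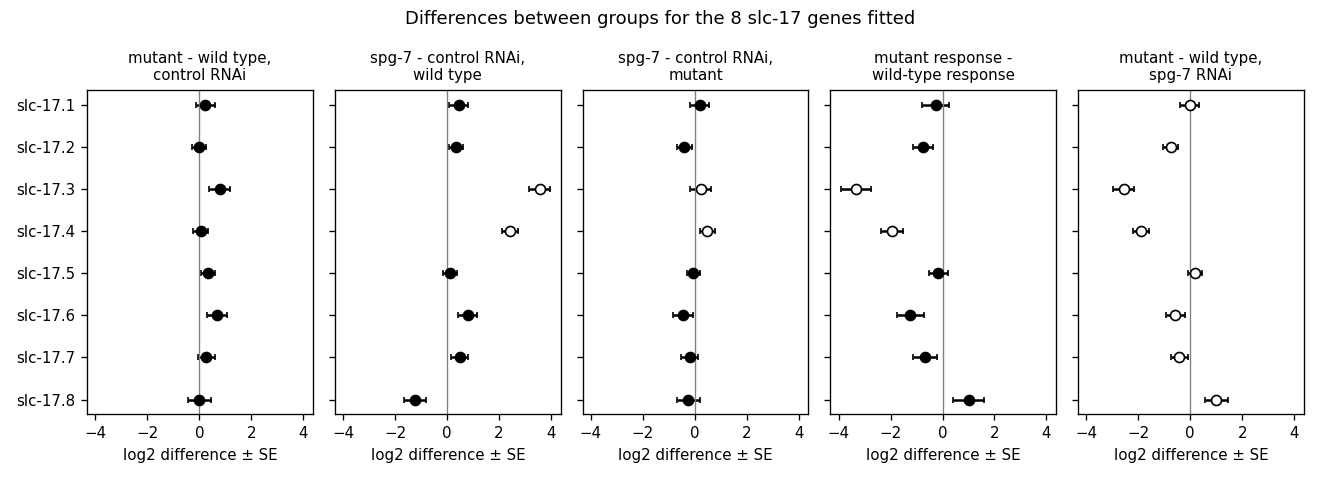
Log2 difference ± SE (limma, 12 arrays) for the 8 fitted slc-17 genes in the 5 comparisons. Filled points were tested and open points are descriptions, and the open points of slc-17.3 (3.56 in wild type) and slc-17.4 (2.43) lie farthest from 0 in the wild-type response, while all 8 lie between -0.45 and 0.48 in the mutant.

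Over the family, 0 of the 6 genes tested were called in the wild-type response, in which 4.73% of all genes were called, and 1 of the 6 (slc-17.8) had an unadjusted p under 0.05, as did 20.1% of all genes. In the mutant response 0 of 6 were called and 0 had an unadjusted p under 0.05, beside 1.17% and 9.47% of all genes. In the difference between responses 0 of 6 and 0% of all genes were called by limma, with 1 of the 6 and 6.23% of all genes at an unadjusted p under 0.05. No gene of the 8 had separated groups in the mutant response, in which 25.9% of all genes did. The median of the 6 tested genes was 0.39 in wild type and -0.22 in the mutant, against -0.04 and -0.02 over all genes.

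The genes closest to slc-17.3 and slc-17.4 in pattern were ranked by the root mean square difference between log2 signals over the 12 arrays, each gene centred on its own mean. Because both patterns are led by the stressed wild-type arrays, the ranking finds genes high on those arrays. Closest to slc-17.3 was nhr-61, a nuclear hormone receptor gene, at 0.42 log2 units, where slc-17.3 itself has a spread of 1.40. F41C3.1 followed at 0.46, slc-17.4 was the third of 10384 genes at 0.60, and Y105C5B.15 and kap-1, a subunit of the kinesin-II motor, were both at 0.64. Closest to slc-17.4, whose own spread is 1.03, were the mucin-like gene mul-1 at 0.37, coq-1, an enzyme of ubiquinone synthesis, at 0.40, nhr-61 at 0.42, Y105C5B.15 at 0.47 and bath-45 at 0.47. slc-17.3 was at rank 52 from slc-17.4. The nhr-61 signal was 277.8, 281.5 and 253 in the stressed mutant and 137.1, 155.3 and 143.9 in the unstressed mutant. In wild type it was 1326, 1135 and 761 on arrays labelled spg-7 RNAi, against 142.2, 115.9 and 129.1 on control arrays. nhr-61 is measured by an s and kap-1 by an x probe set, which can bind transcripts of other genes.

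**Figure D3:**
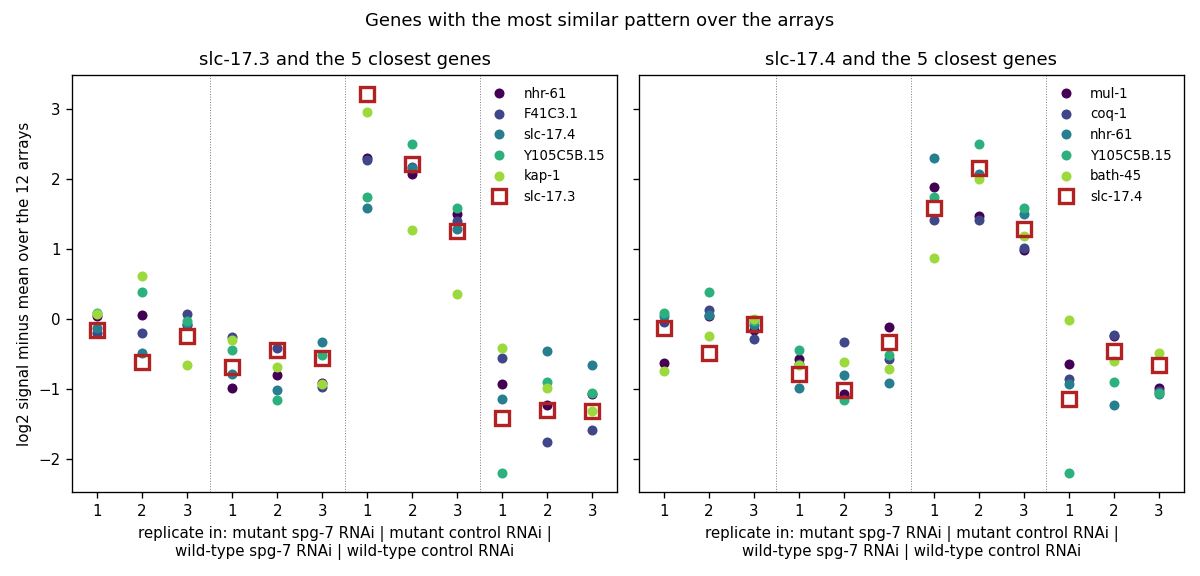
Log2 signal minus its mean over the 12 arrays for slc-17.3 (left, red square) and slc-17.4 (right, red square) and the 5 genes closest to each by root mean square difference, by replicate in the 4 groups. In all genes shown the wild-type arrays labelled spg-7 RNAi have the highest group mean, and slc-17.3 has its highest point on replicate 1, slc-17.4 on replicate 2.

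Genes of 4 related lists were read against the shares of all genes called, which were 0% on control RNAi, 4.73% in the wild-type response, 1.17% in the mutant response, 0% in the difference between responses and 0.0963% between the stressed genotypes. At an unadjusted p under 0.05 (limma) the shares of all genes were 10.7%, 20.1%, 9.47%, 6.23% and 15.4% in these 5 comparisons. Of the other vesicular transporters (the glutamate transporter gene eat-4, vglu-2, vglu-3, vnut-1, and the transporter genes unc-17, unc-47 and cat-1 for acetylcholine, GABA and monoamines) 6 of 7 were fitted, all but eat-4, and limma called 0 in any of the 5 comparisons (2 had an unadjusted p under 0.05 on control RNAi, 1 in the mutant response and 0 in the others). Their lowest adjusted p was 0.391 in the wild-type response and 0.503 in the mutant response (limma), and their median log2 difference was -0.25 in the mutant and -0.35 in wild type. The 19 genes of the vacuolar proton pump had medians of 0.13 and 0.03 in the same order, with 0 called by limma and 0 at an unadjusted p under 0.05 in any comparison. Of 6 phosphate transporter genes named pitr, 3 were fitted and limma called 0 (1 at an unadjusted p under 0.05 on control RNAi and 0 in the other comparisons).

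Among 23 other genes with a symbol starting slc-, 22 were fitted. One, slc-25A21, is a mitochondrial carrier gene measured by an s probe set that can bind other transcripts. It fell in the mutant, at 127.3, 164.6 and 130.6 on arrays labelled spg-7 RNAi, against 363, 387 and 274 on control arrays. The difference was -1.27 ± 0.26 (log2, SE; limma adjusted p = 0.0455). In wild type it stood at 178, 139.7 and 208.4 on arrays labelled spg-7 RNAi, against 301, 314 and 351 on control arrays (-0.89 ± 0.26, limma adjusted p = 0.0805). This was 1 of 22 genes called in the mutant response, beside 1.17% of all genes, and no other gene of the list was called in any comparison. At an unadjusted p under 0.05 the list had 1 gene on control RNAi, 2 in the wild-type response, 1 in the mutant response, 3 in the difference between responses and 5 between the stressed genotypes, against 10.7%, 20.1%, 9.47%, 6.23% and 15.4% of all genes in the same order. Of the 12 fits that leave out 1 array, 10 ended the call of slc-25A21, with adjusted p values of up to 0.218 without mutant spg-7 replicate 1, and the other 2, without wild-type spg-7 replicate 3 or wild-type control replicate 1, kept it. It was also lost with median centring (0.06), with no filter (0.0604), with each probe set on its own (0.0643) and with the replicate block (0.0709). The median of the list was -0.09 in the mutant and 0.14 in wild type, against -0.02 and -0.04 over all genes.

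**Figure D4:**
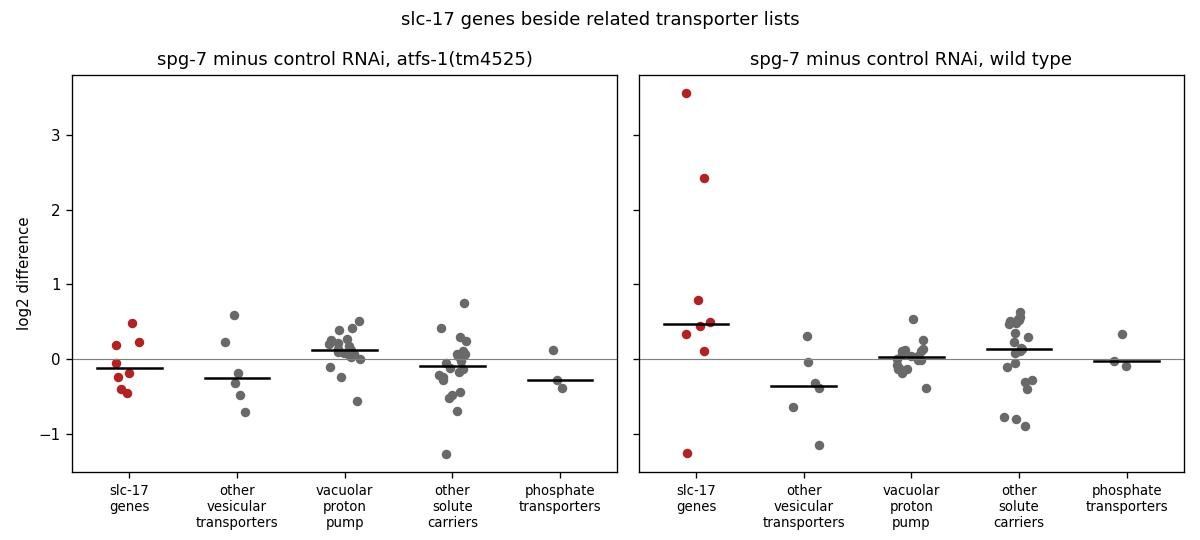
Log2 difference between spg-7 RNAi and control RNAi arrays in the mutant (left) and wild type (right), 1 point per gene fitted, for the slc-17 genes (red) and 4 lists of related transporters (grey), with a black line at the median of each list. In wild type slc-17.3 and slc-17.4 lie above all genes of the 4 lists. As slc-17.3 and slc-17.4 were chosen by their signals on stressed arrays, their points are descriptions with no test. Nothing is read from their place above the lists, whose genes were not chosen in that way. In the mutant the 8 slc-17 genes lie between -0.45 and 0.48, within the range of the other solute carriers.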

How the data were processed

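Probe-set signal intensities were used as the authors deposited them, on a linear scale; per the submitters' processing notes MAS5 made them, with version and settings not given in the sources used here. Signals were floored at 1 and taken to log2, the 77 control probe sets were set aside, and the 40% of the others with the lowest mean were left out (level 76). Each gene was represented by its brightest singly named probe set, leaving 10385 genes; further probe sets were read from a fit of every probe set on its own with no filter. With limma 3.58.1 in R 4.3.3 (package data.table, version 1.17.8), group means were fitted over 12 arrays with a variance trend, and p values were adjusted over all genes by Benjamini-Hochberg at 0.05. Plots used Python 3.11.15 and matplotlib 3.10.9. Chromosomes and gene identifiers come from a RefSeq gene table. The calling was tested on simulated data. All 9 genes were named, with the 5 closest genes in pattern and called genes of the lists. The members and lists were chosen with earlier results of these data known. Alternatives changed the scaling, pseudocount, filter, variance model, arrays, threshold and replicate block. Replicate numbers were not used as pairs in the main fit.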

Additional observations from a re-analysis of the deposited data

How the results depend on the processing

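None of the tested slc-17 genes was called in any comparison under any alternative in which it was fitted (slc-17.3, slc-17.7 and slc-17.8 were not with the lowest 60% of probe sets left out), and slc-17.3 and slc-17.4 kept their signs in the 4 comparisons that use stressed arrays. With 32 added before log2, slc-17.3 stood at 2.98 in the wild-type response and -2.81 in the difference between responses. Signs of uncalled values turned: on control RNAi between genotypes, slc-17.4 was at -0.09 and slc-17.8 at -0.11 after quantile normalisation, -0.08 and -0.12 after median centring, and slc-17.4 at -0.15 without wild-type control replicate 1 and wild-type spg-7 replicate 3 together. Quantile normalisation put slc-17.5 at 0.03 in the mutant response, and median centring put it at -0.05 between stressed genotypes. Median centring also moved the median of all genes to -0.15 on control RNAi, -0.22 between stressed genotypes, -0.11 in the difference between responses and 0.08 in wild type. Fits without 1 array ranged on control RNAi from -0.12 to 0.57 (slc-17.1), -0.15 to 0.20 (slc-17.2), -0.15 to 0.20 (slc-17.4), -0.08 to 0.56 (slc-17.7) and -0.29 to 0.34 (slc-17.8). They ranged for slc-17.5 from -0.09 to 0.30 in wild type, -0.19 to 0.03 in the mutant, -0.36 to 0.04 in the difference and -0.02 to 0.37 between stressed genotypes. For slc-17.1 they ranged from -0.03 to 0.38 in the mutant, -0.59 to 0.10 in the difference and -0.24 to 0.12 between stressed genotypes. The count of all genes called, 491 in wild type, was 84 in a fit of its own groups, 154 at an adjusted p under 0.01, 222 to 1039 without 1 array (the highest without wild-type control replicate 1, the lowest without wild-type spg-7 replicate 2) and 1227 without the 2 arrays named above. In the mutant it was 121, against 320, 48, 44 to 193 and 247 under the same alternatives, and 71 with the lowest 60% of probe sets left out. Between stressed genotypes it was 10, against 18 with no filter, 20 with every probe set on its own, 1 at an adjusted p under 0.01, 0 to 587 without 1 array and 240 without the 2 arrays; in the difference between responses 0 became 1 with 32 added, and likewise in the fit lacking wild-type spg-7 replicate 3. With the replicate number as a block, 532, 106, 7 and 0 genes were called in these 4 comparisons and 0 slc-17 genes were, with slc-17.8 in wild type at -1.25 (limma adjusted p = 0.071). The deviations of arrays with the same number correlated between -0.664 and 0.663, with a median of 0.124, against a median of -0.11 for different numbers. Of the 12 arrays, 6 correlated best with one of their own number. These values do not settle whether the numbers mark pairs, and the main fit did not use them. The cause of these shifts was not tested.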

Other observations

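Of the 4 protein-coding neighbours of slc-17.3 and slc-17.4 in the RefSeq gene order, 3 were fitted, and in each of these the stressed and unstressed wild-type arrays overlapped. Over all genes 9.99% were higher and 8.48% lower without overlap in this response. Most genes thus overlapped, and nothing is read from the count of neighbours. snr-5, a spliceosome gene on one side of slc-17.3, had a wild-type response of -0.53 on the log2 scale, and cup-4, needed for uptake by coelomocytes, on the other side had 0.07, with signals of 386, 231.4 and 150.1 on stressed wild-type arrays, against 388, 153.2 and 197.3 on wild-type control arrays. Beside slc-17.4, the zinc transporter gene zipt-7.1 was at 503, 385 and 739 in the stressed mutant and 705, 683 and 856 in the unstressed mutant. In wild type it was at 557, 515 and 1405 on arrays labelled spg-7 RNAi and 364, 851 and 400 on control arrays. The gene on the other side, T28F3.11, was not fitted.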
